A study of Homo sapiens with 11 samples.

Results

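The genes described here carry adrenergic and muscarinic signals in heart muscle cells: the receptors ADRB1, ADRA1A, ADRA1B and CHRM2, the adenylyl cyclases ADCY5 and ADCY6, the phosphodiesterases PDE3A and PDE4D, and the receptor kinase GRK5. They were chosen by symbol, and all 9 were found among the 19990 genes of the deposited count table. The 9 genes and the lists of related genes below were chosen with earlier results of these data known. Their shares beside those of all genes are therefore descriptions only. RNA was measured in cardiomyocytes made from passage 63 cells of WTC11, a widely used line of induced pluripotent stem cells of human origin. All wells shared 1 differentiation, in which the GSK3 inhibitor CHIR99021 was followed by the Wnt secretion inhibitor IWP2, and all were then kept in B27 medium with insulin. As labelled, the groups differed in day of collection only: Day 30 (4 wells), Day 60 (3) or Day 113 (4) of culture. Because the wells come from 1 line and 1 differentiation, p-values measure the spread between wells and not between differentiations. Each day was 1 collection, so an effect of the day and an effect of its collection cannot be told apart.

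As background, noradrenaline and adrenaline act on cardiac β1-adrenergic receptors, which couple through Gs to adenylyl cyclase, and the resulting cyclic AMP activates protein kinase A, raising the rate and force of contraction. Acetylcholine from the vagus acts on muscarinic M2 receptors, which couple through Gi, restrain adenylyl cyclase and open potassium channels that slow the beat. Phosphodiesterases break cyclic AMP down, α1-adrenergic receptors signal through Gq and phospholipase C, and G protein-coupled receptor kinases phosphorylate active receptors so that arrestins can bind.

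Promoter sequences are shown for 3 of the genes: GRK5, which rose early, CHRM2, whose level passed no test, and ADRB1, the β1-adrenergic receptor. Each is the 250 bases before a RefSeq transcription start (GRCh38.p14), in 5′ to 3′ direction on the plus strand, and was picked because no annotated exon lies in it. Promoter windows were examined for 7 of the 9 genes, which does not show that RefSeq lacks a start for the others. Capitals mark the GC box (GGGCGG or CCGCCC) and the motif TGACG or CGTCA, which is part of the cAMP response element TGACGTCA. The windows are chr10:119207321-119207570 for GRK5, chr7:136868402-136868651 for CHRM2 and chr10:114043616-114043865 for ADRB1.
GRK5: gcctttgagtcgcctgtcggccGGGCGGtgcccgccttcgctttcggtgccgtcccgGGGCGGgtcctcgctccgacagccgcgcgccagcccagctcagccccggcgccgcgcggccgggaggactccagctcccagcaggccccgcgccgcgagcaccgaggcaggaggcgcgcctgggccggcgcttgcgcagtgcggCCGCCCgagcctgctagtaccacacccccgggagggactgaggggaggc
CHRM2: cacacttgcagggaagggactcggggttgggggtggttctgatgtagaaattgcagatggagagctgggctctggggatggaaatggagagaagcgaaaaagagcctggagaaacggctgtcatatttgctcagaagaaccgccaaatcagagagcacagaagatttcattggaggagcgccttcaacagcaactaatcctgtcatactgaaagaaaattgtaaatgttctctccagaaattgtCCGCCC
ADRB1: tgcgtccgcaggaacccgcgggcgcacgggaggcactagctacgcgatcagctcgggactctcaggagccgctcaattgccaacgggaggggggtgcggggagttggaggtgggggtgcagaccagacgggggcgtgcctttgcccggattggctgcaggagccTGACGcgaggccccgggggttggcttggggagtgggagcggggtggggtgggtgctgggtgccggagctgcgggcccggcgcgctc
The GRK5 window held 3 GC boxes, the CHRM2 window held 1, which ends at the last base of the window, and the ADRB1 window held none. A TGACG motif was found only in the ADRB1 window among these 3, 86 bases before the start, and the full TGACGTCA in none of them. CHRM2 has further starts in RefSeq, whose windows contain CHRM2 exon and are not shown. Those windows overlap and hold the same CGTCA, which lies 36 and 197 bases before their starts. Over the same stretch of 35116 RefSeq promoters, 42.6% held a GC box, 21.2% a TGACG motif on either strand and 1.65% the full TGACGTCA. These matches describe letters in the windows and were not tested for binding.

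The libraries held 24.1 to 34.5 M counts (M, units of 1000000). Levels below are counts per 1000000 counts (CPM) with TMM-scaled library sizes. Fold changes, standard errors (SE) and adjusted p-values are from edgeR's quasi-likelihood test over 19990 genes with a threshold of 0.05. All 8 cardiomyocyte markers checked (such as TNNT2, MYH6, MYH7 and RYR2) were present in every well, with a summed level of 25660 to 35310 CPM at Day 30, 30790 to 35240 at Day 60 and 26230 to 33500 at Day 113. At Day 113, 3 of these 8 were higher and 2 lower than at Day 30. Markers of other cells moved between days. The 8 endothelial markers summed to 59.5 to 83.4 CPM at Day 30, 40.7 to 69.1 at Day 60 and 210 to 867 at Day 113, with 8 of 8 higher at Day 113 than at either earlier day. Those of fibroblasts summed to 3353 to 7707, 2070 to 3570 and 5431 to 13040 CPM over the 3 days, and 7 smooth muscle and pericyte markers to 663 to 828, 664 to 812 and 862 to 1399. The 8 endoderm and epithelial markers summed to 1459 to 2644 CPM at Day 30, 671 to 785 at Day 60 and 808 to 1291 at Day 113. All 8 were lower at Day 60 than at Day 30, and 7 were lower at Day 113 than at Day 30. From Day 60 to Day 113, 1 was higher (KRT8) and 2 were lower (AFP and APOA1), with a median log2 change of -0.85 over the 8. The 5 neural markers in the table summed to 16.3 to 19.8, 21.6 to 27.1 and 13.5 to 17.9 CPM over the 3 days, and the 3 immune markers stayed between 1.10 and 4.94 CPM. No endothelial, fibroblast or endoderm marker was at 0 on any day. The part of these markers in the changes below was not tested, and in bulk RNA more cells of a type and more RNA per cell cannot be told apart.

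Between Day 30 and Day 113, 5 of the 9 genes rose (ADRA1A, ADCY5, PDE3A, PDE4D and GRK5) and none fell, where 34.5% of all genes were called, 17.3% higher and 17.2% lower. The median log2 change of the 9 was 0.73, beside -0.02 over all genes. From Day 30 to Day 60, ADRA1A and GRK5 rose, which is 2 of 9 where 10.3% of all genes were called, 4.39% higher and 5.91% lower. From Day 60 to Day 113, 1 of 9 was called, ADCY6, which fell, where 24.0% of all genes were called, 12.9% higher and 11.1% lower. The joint test of any change over the 3 days called 6 of the 9, against 37.1% of all genes. It left out ADRB1, ADRA1B and CHRM2. ADRA1A, with 3 counts in all at Day 30, met the count filter (minimum count 10) through its later wells only. A fall of ADRA1A from Day 30 could not have been seen.

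**Figure D1:**
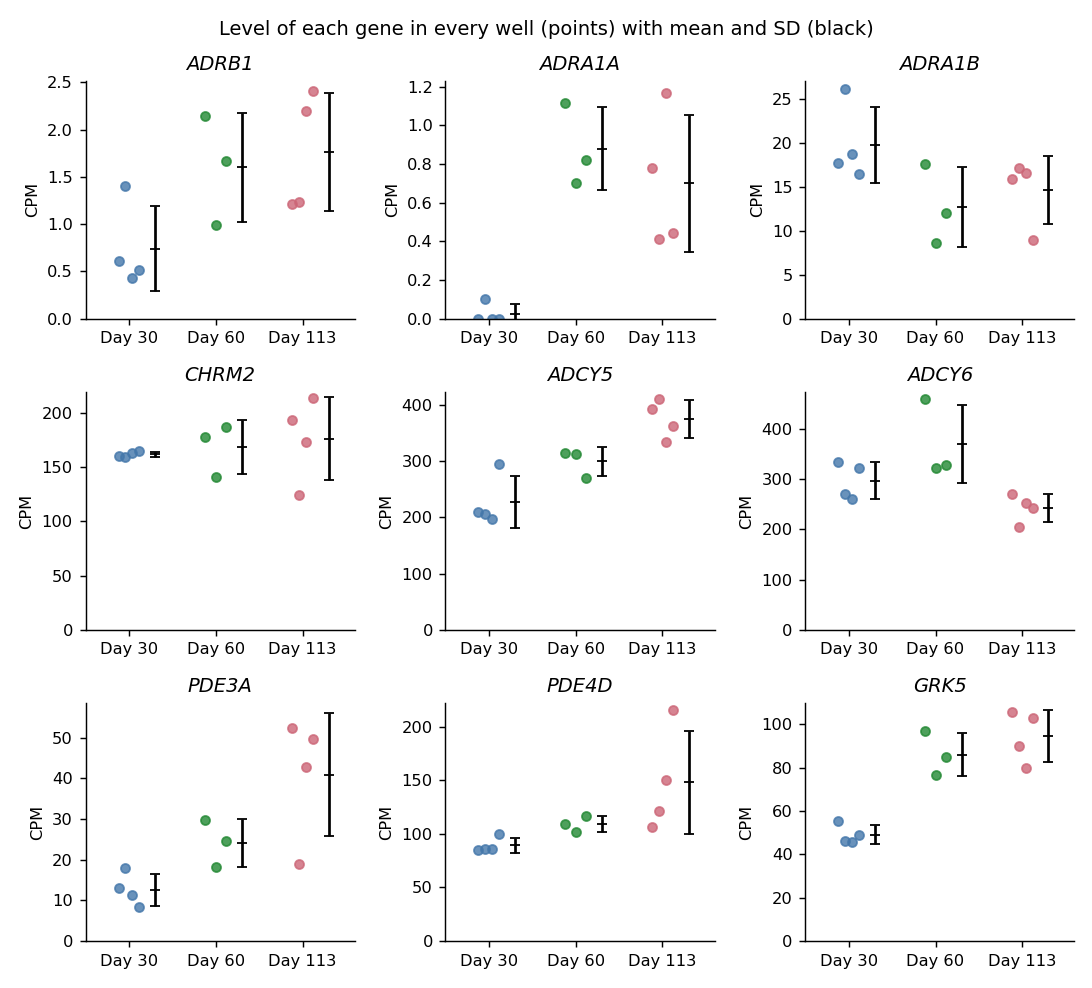
Level of each of the 9 genes in every well, in CPM on an axis from 0 that differs between panels. Points are wells by day and black bars are the mean and SD (4, 3 and 4 wells). GRK5 is higher in every Day 60 and Day 113 well than in any Day 30 well, while CHRM2 stays between 124 and 214 CPM throughout.

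Among the receptors, the muscarinic M2 receptor CHRM2 had the highest level per length of exon on every day. CHRM2 (chromosome 7, 136868669 to 137020255, plus strand, GRCh38) stood at 161, 159, 163 and 165 CPM in the Day 30 wells, at 178, 141 and 187 at Day 60, and at 193, 124, 173 and 214 at Day 113. The days overlap, and the wells lie further apart on the later days: the SD was 1.5% of the mean at Day 30, 14.6% at Day 60 and 21.8% at Day 113. The log2 change of CHRM2 was 0.06 (SE 0.15, adjusted p 0.88) to Day 60, 0.06 (SE 0.15, adjusted p 0.80) from there to Day 113, and 0.12 (SE 0.14, adjusted p 0.54) over the whole course. No difference larger than the spread between wells was found. The sign of the second interval changed when single wells were left out, to -0.05 without Day 60 replicate 2 and -0.04 without Day 113 replicate 4.

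ADRB1, the β1-adrenergic receptor and the main target of cardiac beta blockers, had few reads. ADRB1 (chromosome 10, 114044056 to 114046908, plus strand) gave 16, 42, 13 and 15 counts at Day 30, which is 0.611, 1.40, 0.428 and 0.515 CPM. The Day 60 wells held 2.14, 0.995 and 1.67 CPM and the Day 113 wells 1.21, 1.24, 2.20 and 2.41 CPM. The later wells are mostly higher, but Day 30 replicate 2 lies among them, so the days overlap. The log2 change to Day 113 was 1.25 (SE 0.49) and did not pass the threshold (adjusted p 0.062, with 0.017 to 0.16 over 21 alternatives). Without Day 30 replicate 2 it passed, at 1.77 (adjusted p 0.017), and so it did with DESeq2 (adjusted p 0.041) and over genes with a mean of at least 1 CPM (0.045). The change to Day 60 was 1.11 (SE 0.52, adjusted p 0.21), and from Day 60 to Day 113 it was 0.14 (SE 0.52, adjusted p 0.89), or -0.11 without Day 60 replicate 2 and -0.05 without Day 113 replicate 4.

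ADRA1A, an α1-adrenergic receptor that couples to Gq, went from almost no reads to a low level. At Day 30, ADRA1A (chromosome 8, 26748150 to 26867273, minus strand) had 0, 3, 0 and 0 counts. It had 35, 19 and 26 counts at Day 60, or 1.12, 0.700 and 0.820 CPM, and 27, 11, 41 and 11 counts at Day 113, or 0.779, 0.412, 1.17 and 0.441 CPM. Every later well is above every Day 30 well, and the Day 60 and Day 113 wells overlap. Over the wells of a day, the CPM ratio to Day 30 was 34.2 at Day 60 (95% exact interval 11.3 to 169) and 28.6 at Day 113 (9.48 to 141), intervals that cover counting error only. The rise passed the test at both days (adjusted p 0.0084 and 0.0030). Without Day 30 replicate 2, the only Day 30 well with reads, the rise was taken against a floor of 3 counts over the remaining Day 30 wells. It was then 25.3-fold to Day 60 and 21.2-fold to Day 113, values that leave out counting error in the later wells. The difference between Day 113 and Day 60 was not called (adjusted p 0.83).

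ADRA1B, the other α1 receptor described here, had lower means on the later days but passed no test in the main fit. With the replicate number as a block, its fall to Day 60 was called (log2 -0.79, adjusted p 0.045). ADRA1B (chromosome 5, 159865080 to 159972544, plus strand) stood at 17.7, 26.2, 18.7 and 16.5 CPM at Day 30, at 17.6, 8.59 and 12.1 at Day 60, and at 15.9, 17.2, 16.6 and 8.91 at Day 113. The days overlap. The log2 change was -0.63 (SE 0.26, adjusted p 0.14) to Day 60 and -0.43 (SE 0.23, adjusted p 0.17) to Day 113. Between Day 60 and Day 113 it was 0.20 (SE 0.25, adjusted p 0.62), or -0.02 without Day 60 replicate 2. Despite the rise of ADRA1A, ADRA1B had the higher level in every well: per kb of exon the Day 113 means were 5.45 CPM for ADRA1B and 0.120 CPM for ADRA1A.

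The adenylyl cyclases ADCY5 and ADCY6 are the closely related, calcium-inhibited isoforms that predominate in heart muscle, and the order of their means differed between days. ADCY5 (chromosome 3, 123282296 to 123449758, minus strand) stood at 209, 205, 198 and 296 CPM at Day 30, at 315, 313 and 270 at Day 60, and at 393, 411, 335 and 362 at Day 113. Every Day 113 well is above every earlier well, and Day 30 replicate 4 lies within the Day 60 range. ADCY5 rose 1.65-fold from Day 30 to Day 113 (log2 0.73, SE 0.12, adjusted p 3.0e-04). Neither interval alone was called (log2 0.40, adjusted p 0.068, then 0.32, adjusted p 0.092). The first was called in 7 of 21 alternatives, among them DESeq2 (adjusted p 0.020), limma-voom (0.047), upper-quartile scaling (0.040) and a fit of only the 2 days (0.038). Without Day 30 replicate 4 both intervals were called (adjusted p 0.0050 and 0.032), and without Day 113 replicate 2 the first was (0.048).

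ADCY6 (chromosome 12, 48766194 to 48789037, minus strand) stood at 334, 270, 260 and 323 CPM at Day 30, at 461, 323 and 328 at Day 60, and at 270, 204, 252 and 243 at Day 113. Every Day 113 well is below every Day 60 well, while Day 30 overlaps both. ADCY6 fell by 0.61 on the log2 scale from Day 60 to Day 113 (SE 0.14, adjusted p 0.0047), to 0.654 of its Day 60 mean. The change to Day 60 was 0.32 (SE 0.14, adjusted p 0.17), and that over the whole course -0.29 (SE 0.13, adjusted p 0.093). With the replicate number as a block, both were called (adjusted p 0.043 and 0.021). The second interval differed from the first by -0.93 on the log2 scale (SE 0.24, adjusted p 0.024). The intervals compared differ in length and share the Day 60 wells. ADCY6 and ADRA1A were the 2 of 9 genes called in this test, which called 9.34% of all genes. The difference of ADCY6 was not called without Day 60 replicate 1, the well with 461 CPM (-0.59, adjusted p 0.20). For ADRA1A the call (adjusted p 0.046) was kept without Day 30 replicate 2 (adjusted p 0.016) and lost without any one of the other 10 wells (adjusted p 0.055 to 0.16).

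The ratio of ADCY5 to ADCY6 counts within a well needs no scaling between libraries. It was 0.625, 0.760, 0.760 and 0.916 at Day 30, 0.684, 0.970 and 0.825 at Day 60, and 1.45, 2.01, 1.33 and 1.49 at Day 113. All 7 earlier wells are below 1 and all 4 Day 113 wells above it. At Day 30 the log2 ratio averaged -0.40 ± 0.22 (SD, n = 4), against 0.63 ± 0.26 (SD, n = 4) for the Day 113 wells (two-sided exact permutation p = 0.0286, the smallest that 4 against 4 wells allow, and 0.0857 adjusted over the 3 comparisons). Day 113 against Day 60 gave 0.0571 in the same exact permutation test, also 0.0857 adjusted, and Day 60 against Day 30 gave 0.629. This test doubles the one-sided p, and 0.0571 is the smallest that it allows for 4 against 3 wells. In this form no adjusted p could reach 0.05 with these numbers of wells, so the tests do not decide either way. A two-sided p from the absolute difference, which can be smaller for 4 against 3 wells, was not computed. This ratio was chosen after the values were seen.

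**Figure D2:**
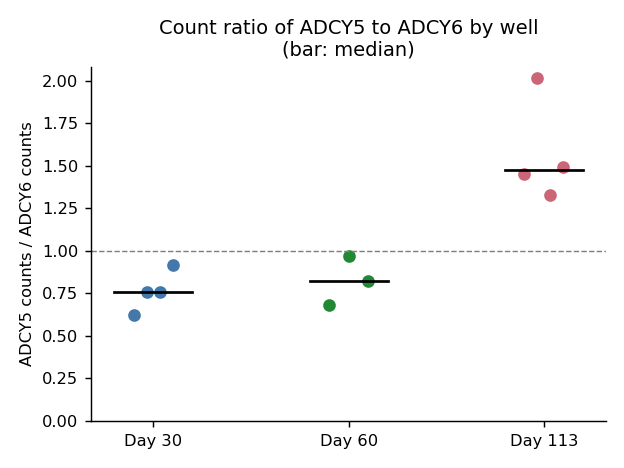
Ratio of ADCY5 counts to ADCY6 counts in each well (points) by day, on a linear axis from 0, with the median of the day as a bar. The dashed line marks equal counts, and only the 4 Day 113 wells, at 1.33 to 2.01, lie above it.

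Of the phosphodiesterases, PDE3A, which hydrolyses cyclic AMP, is inhibited by cyclic GMP and is the target of the cardiac drug milrinone, had the largest fold among the 8 genes other than ADRA1A. PDE3A (chromosome 12, 20369245 to 20684381, plus strand) stood at 13.0, 17.8, 11.3 and 8.35 CPM at Day 30, at 29.8, 18.1 and 24.6 at Day 60, and at 52.3, 19.0, 42.7 and 49.7 at Day 113. All later wells are above all Day 30 wells, though Day 60 replicate 2 and Day 113 replicate 2 lie just above the highest of them. PDE3A rose 3.25-fold to Day 113 (log2 1.70, SE 0.28, adjusted p 2.2e-04). The change to Day 60 was 0.94 on the log2 scale (SE 0.29, adjusted p 0.053) and that from Day 60 to Day 113 was 0.76 (SE 0.30, adjusted p 0.076). Without Day 113 replicate 2 both intervals were called (adjusted p 0.0092 and 0.0052), and the first also without Day 30 replicate 2 (0.033), Day 60 replicate 2 (0.047) or Day 113 replicate 1 (0.039), with upper-quartile scaling (0.045) and with only the 2 days fitted (0.0084).

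PDE4D, a cyclic AMP-specific phosphodiesterase with many isoforms, stood at 84.8, 85.7, 86.2 and 100 CPM at Day 30, at 109, 102 and 117 at Day 60, and at 107, 121, 150 and 215 at Day 113 (chromosome 5, 58969038 to 60522120, minus strand). All later wells are above all Day 30 wells, and the Day 113 wells spread widely, with an SD of 32.5% of the mean. PDE4D rose 1.66-fold to Day 113 (log2 0.73, SE 0.16, adjusted p 0.0026). The change to Day 60 was 0.29 (SE 0.18, adjusted p 0.36), and the later one 0.44 (SE 0.18, adjusted p 0.086). The first was called with only the 2 days fitted (adjusted p 0.028) and with the replicate number as a block (0.040). Without Day 113 replicate 1 or replicate 2, the later one was called (adjusted p 0.016 and 0.044). The annotation gives PDE4D 15 distinct starts among 16 coding transcripts, and a gene-level count does not tell them apart.

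GRK5, a receptor kinase of heart muscle that desensitises β-adrenergic receptors, rose in the first interval. GRK5 (chromosome 10, 119207589 to 119459742, plus strand) stood at 55.1, 46.3, 45.7 and 49.1 CPM at Day 30, at 96.7, 76.5 and 84.8 at Day 60, and at 105, 89.8, 79.7 and 103 at Day 113. Day 30 does not overlap the later days, which overlap each other. GRK5 rose 1.75-fold to Day 60 (log2 0.81, SE 0.12, adjusted p 4.3e-04) and was 1.93-fold above Day 30 at Day 113 (log2 0.95, SE 0.11, adjusted p 9.3e-06). The change after Day 60 was 0.14 (SE 0.12, adjusted p 0.46). The 2 intervals differed by -0.68 on the log2 scale, which did not pass the threshold (SE 0.21, adjusted p 0.052).

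**Figure D3:**
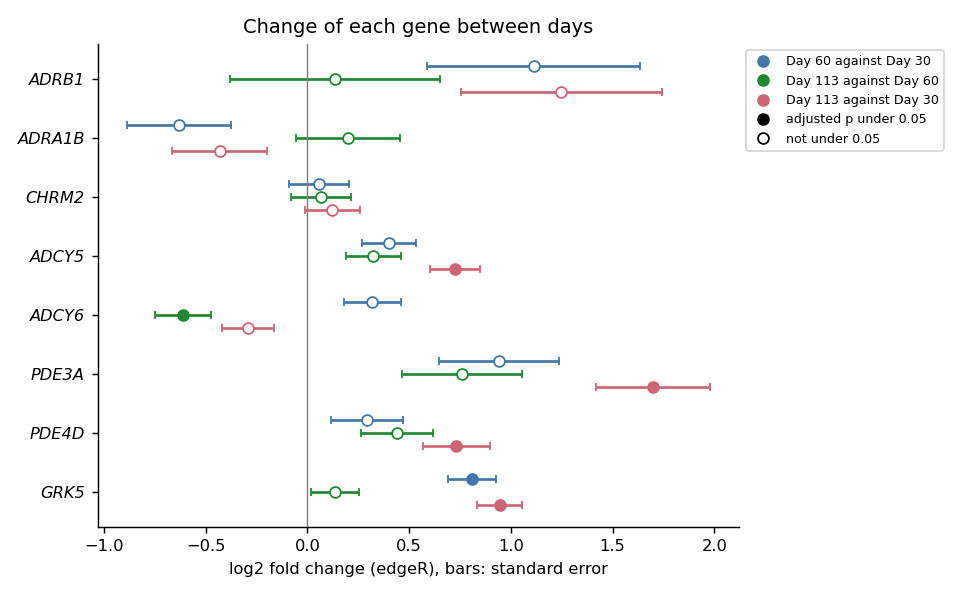
Log2 fold change of 8 of the genes between each pair of days, with the SE as bars. Filled points have an adjusted p under 0.05. ADRA1A is left out because it had 3 counts in all at Day 30. ADCY6 is the only gene with a filled point below 0, at -0.61 from Day 60 to Day 113.

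Exons of ADCY5, ADCY6, PDE3A and PDE4D overlap antisense or other transcripts in the annotation, over 4.41%, 8.48%, 4.81% and 1.39% of their exonic bases (PDE4D shares a further 0.129% with another transcript). None of those transcripts is in the table. Whether counting used strand is not given in the sources used here, so reads from these stretches cannot be told apart.

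Between genes, levels were compared as CPM per kb of annotated exon. At Day 30 the order was ADCY6 (35.3 ± 4.40, SD, n = 4), ADCY5 (25.6, wells from 22.3 to 33.3), CHRM2 (19.5 ± 0.292), ADRA1B (7.36 ± 1.62), GRK5 (7.0 ± 0.615), PDE4D (5.47 ± 0.451), PDE3A (1.5 ± 0.472), ADRB1 (0.259 ± 0.157) and ADRA1A (0.00428 ± 0.00856). The wells of ADCY6 and ADCY5 overlapped (ADCY6 from 30.9 to 39.7), as did those of ADRA1B (6.14 to 9.73) and GRK5 (6.53 to 7.87), while the other neighbours in this order did not overlap. By Day 113 the order was ADCY5 (42.3 ± 3.80, SD, n = 4), ADCY6 (28.8 ± 3.30), CHRM2 (21.2 ± 4.62), GRK5 (13.5 ± 1.72), PDE4D (9.09 ± 2.96), ADRA1B (5.45 ± 1.44), PDE3A (4.87 ± 1.80), ADRB1 (0.618 ± 0.220) and ADRA1A (0.120 ± 0.0606). ADCY5 (37.7 to 46.4) then lay above ADCY6 (24.3 to 32.1) in every well. Further down, neighbours overlapped between ADCY6 and CHRM2, CHRM2 and GRK5, GRK5 and PDE4D, and ADRA1B (3.31 to 6.39) and PDE3A (2.26 to 6.22). These levels depend on the length used: with the longest coding transcript in place of all exons, GRK5 stood at 35.6 ± 4.54 CPM per kb at Day 113, above CHRM2 at 29.8 ± 6.50 (SD, n = 4 each). At Day 30 that length put the means of GRK5 (18.5 ± 1.62) and PDE4D (10.8 ± 0.893) above that of ADRA1B (9.66 ± 2.1, SD, n = 4 each). The wells of PDE4D and ADRA1B then overlapped.

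Of 9 adrenergic receptor genes, 2 were higher at Day 113 than at Day 30 (ADRA1A and ADRB3) and 1 was lower (ADRA2B), a share near the 34.5% called among all genes. ADRB3, the β3-adrenergic receptor, rose from 4.50 ± 1.76 CPM (SD, n = 4) at Day 30 and 6.52 ± 2.44 (n = 3) at Day 60 to 16.7 ± 2.64 (n = 4) at Day 113 (log2 1.89 over the course, SE 0.28, adjusted p 8.4e-05). ADRA2B, an α2 receptor that couples to Gi, went from 13.5 ± 0.718 and 14.7 ± 1.31 CPM to 3.42 ± 0.867, and fell by 1.98 on the log2 scale (SE 0.19, adjusted p 1.0e-06). From Day 60 to Day 113, ADRB3 rose by 1.36 (adjusted p 0.0042) and ADRA2B fell by 2.10 (adjusted p 6.0e-06), beside changes of 0.53 and 0.12 to Day 60 (adjusted p 0.31 and 0.78). The 2 intervals differed for ADRA2B (-2.22, adjusted p 9.9e-04), and not past the threshold for ADRB3 (0.83, adjusted p 0.37).

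Of 6 muscarinic receptor and potassium channel genes in the table, 3 rose to Day 113 and none fell, where 17.3% of all genes were higher. CHRM1, the Gq-coupled M1 receptor, had 0 counts in all 4 Day 30 wells, then 42, 111 and 50 counts at Day 60 and 12, 58, 196 and 97 at Day 113. Against a floor of 3 counts over the Day 30 wells, CHRM1 was 86.8-fold higher at Day 60 and 115-fold higher at Day 113. The edgeR test called both rises (adjusted p 8.7e-04 and 1.1e-04). With 0 counts at Day 30, CHRM1 met the count filter through its later wells only, and no fall from Day 30 could have been seen. The lower limits of the 95% exact intervals, which cover counting error only, were 69.95-fold and 93.35-fold. Without Day 60 replicate 2 the first fold against the floor was 56.3, and without Day 113 replicate 3 the second was 74.7. With limma-voom the Day 60 call was lost (adjusted p 0.072). KCNJ3, a subunit of the potassium channel that M2 receptors open, rose from 7.33 ± 3.38 CPM at Day 30 (SD, n = 4) to 17.0 ± 1.44 at Day 60 (n = 3) and 17.8 ± 1.91 at Day 113 (n = 4), a log2 change of 1.28 over the course (SE 0.25, adjusted p 8.1e-04). KCNJ5, its partner subunit, was 0.32 higher at Day 113 on the log2 scale (adjusted p 0.034). That call was lost in 6 of 21 alternatives, 5 of which left out Day 30 replicate 1, 3 or 4 or Day 113 replicate 2 or 3 (adjusted p up to 0.10).

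Of 10 adenylyl cyclases, 2 were higher at Day 113 than at Day 30 and 2 were lower, a share near that of all genes (17.3% higher and 17.2% lower). ADCY7 fell by 1.48 on the log2 scale (SE 0.18, adjusted p 1.2e-05), from 21.5 ± 3.30 to 7.70 ± 1.68 CPM (SD, n = 4 each), and was already lower at Day 60 (-0.96, adjusted p 0.0044). ADCY9 fell by 0.60 (SE 0.12, adjusted p 9.9e-04), from 60.8 ± 6.18 to 40.0 ± 5.92 CPM. ADCY4 rose from 0.353 ± 0.111 to 3.55 ± 2.36 CPM (log2 3.32, SE 0.83, adjusted p 0.0055). ADCY3 rose in the second interval (log2 1.30, SE 0.33, adjusted p 0.0090).

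Of 16 phosphodiesterase genes, 8 were higher at Day 113 than at Day 30 and 1 was lower, where 17.3% of all genes were higher and 17.2% lower. Their median log2 change was 0.51, beside -0.02 over all genes. PDE1C, which is activated by calcium and calmodulin, had the largest change, from 2.39 ± 1.27 CPM at Day 30 (SD, n = 4) to 9.43 ± 2.09 at Day 60 (n = 3) and 49.6 ± 10.9 at Day 113 (n = 4), and was called in both intervals (log2 1.98 and 2.40, adjusted p 7.7e-04 and 7.3e-05). At Day 113 the wells stood at 39.2, 42.9, 53.1 and 63.5 CPM. PDE1A rose by 3.10 (SE 0.41, adjusted p 2.7e-05), PDE2A, which cyclic GMP stimulates, by 2.33 (SE 0.53, adjusted p 0.0027), PDE4B by 1.64 (SE 0.22, adjusted p 3.4e-05) and PDE7B by 1.43 (SE 0.29, adjusted p 0.0011). PDE8B rose by 0.78 (adjusted p 0.016), a call lost without Day 113 replicate 4 (adjusted p 0.059). PDE3B, the relative of PDE3A known from fat and liver, fell by 0.42 (adjusted p 0.033) and lost its call in 7 of 21 alternatives, 6 of them without 1 well (Day 30 replicate 1, 2 or 4 or Day 113 replicate 2, 3 or 4, adjusted p up to 0.10). Beside these rises, 8 of 8 endothelial markers, 4 of 8 fibroblast markers (2 were lower) and 3 of 7 smooth muscle and pericyte markers were also higher at Day 113 than at Day 30, and their part was not tested.

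Among 7 receptor kinases and arrestins, GRK5 alone rose and 2 fell, which is 3 called of 7 where 34.5% of all genes were. GRK3 fell by 1.01 on the log2 scale between Day 30 and Day 113 (SE 0.12, adjusted p 8.0e-06), with wells at 37.6 to 42.2 CPM at Day 30 and at 17.3 to 23.1 CPM at Day 113, and stood at 42.7 ± 5.93 at Day 60 (SD, n = 3). GRK4 fell by 0.92 (SE 0.22, adjusted p 0.0037). GRK2, the other main cardiac receptor kinase, was at 71.5 ± 4.24, 81.0 ± 0.371 and 84.3 ± 12.3 CPM and was not called (log2 0.24 over the course, SE 0.10, adjusted p 0.085).

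**Figure D4:**
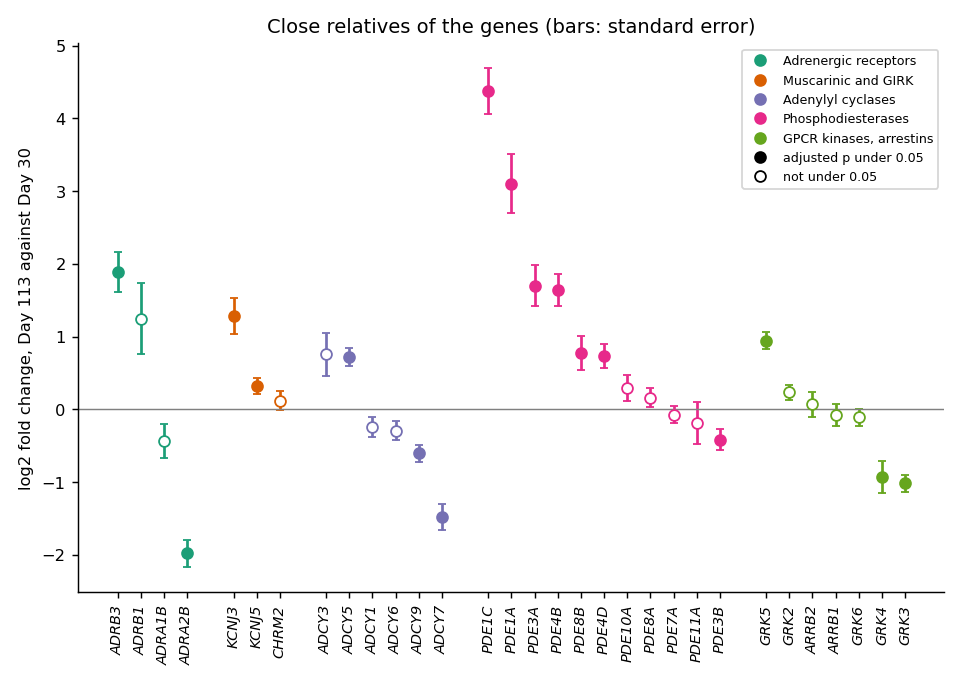
Log2 fold change from Day 30 to Day 113 (points, with SE bars) of the genes of 5 families with a mean of at least 5 CPM and of the 9 genes, except ADRA1A and 1 adrenergic receptor. Other genes with a lower mean, CHRM1 among them, are not plotted. Filled points have an adjusted p under 0.05. Of the plotted genes, PDE1C, at 4.37, is the highest and ADRA2B, at -1.98, the lowest.

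Over all 13 lists of the pathway together, receptors included, 42 of 146 genes other than the 9 were higher at Day 113 than at Day 30 and 21 were lower, 43.1% called where 34.5% of all genes were (17.3% higher and 17.2% lower, which is the background of each list count given here). Among 23 G protein subunits 8 rose and 4 fell, with the γ subunit GNG2 at 2.92 (SE 0.32, adjusted p 5.1e-06), the β subunit GNB3 at 2.65 (adjusted p 2.2e-04) and GNG4 at -2.48 (adjusted p 0.0097, 0.060 without Day 30 replicate 2) on the log2 scale. Of 18 protein kinase A subunits, inhibitors and anchors, 4 rose and none fell. They included the anchor AKAP5 (log2 0.87, adjusted p 0.0042), the regulatory subunit PRKAR2B (0.54, adjusted p 6.5e-04) and the inhibitor PKIG (0.42, adjusted p 0.0050). Of 8 other cyclic AMP effectors, 4 rose, among them the exchange factors RAPGEF4 (log2 1.17, adjusted p 7.2e-07) and RAPGEF3 (1.05, adjusted p 0.0059) and the cyclic AMP-binding membrane protein POPDC2 (0.83, adjusted p 4.6e-05), and 2 fell, among them the pacemaker channel HCN4.

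RGS proteins, which speed the shutdown of G proteins, had 3 of 12 higher and 3 lower, beside 17.3% and 17.2% of all genes. RGS6, known for ending muscarinic signals in the heart, rose by 1.67 on the log2 scale (SE 0.18, adjusted p 5.0e-06), while RGS4 fell by 1.61 (SE 0.31, adjusted p 8.1e-04) and RGS10 by 1.58 (adjusted p 0.036). The RGS10 call was lost in 7 of 21 alternatives, each of which left out 1 well: any of the 4 Day 30 wells, or Day 113 replicate 2, 3 or 4 (adjusted p up to 0.094). In the Gq arm, 3 of 15 rose and 2 fell, a share near the 34.5% of all genes, with the phospholipases PLCB2 (log2 1.04, adjusted p 4.9e-05) and PLCB4 (0.70, adjusted p 0.0016) and the diacylglycerol kinase DGKB (0.95, adjusted p 0.030) higher. DGKB lost its call without Day 30 replicate 1, 2 or 3 or Day 113 replicate 3 (adjusted p up to 0.12), and with limma-voom (0.051).

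Of 11 phosphatase genes and kinase-regulated inhibitors, 4 rose and 1 fell, with the small heat shock protein HSPB6, a substrate of protein kinase A, at 1.40 (adjusted p 6.3e-05), the glycogen-targeting subunit PPP1R3A at 1.32 (adjusted p 5.6e-05) and the inhibitor PPP1R1B at 0.75 (adjusted p 0.0073) on the log2 scale. In the CREB family, whose members bind cyclic AMP response elements or coactivate there, 2 of 8 rose and 2 fell: CREB5 fell by 1.18 (adjusted p 2.4e-06) and CREB3L2 by 0.98 (adjusted p 9.5e-06), and CRTC2 rose by 0.51 (adjusted p 0.011). Of 12 genes of transmitter handling in the table, 3 rose and 1 fell. The monoamine oxidases MAOA and MAOB, which break down noradrenaline, rose by 2.66 (SE 0.30, adjusted p 5.5e-06) and 1.42 (SE 0.26, adjusted p 5.0e-04), and the acetylcholinesterase ACHE fell by 1.38 (SE 0.38, adjusted p 0.0095).

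**Figure D5:**
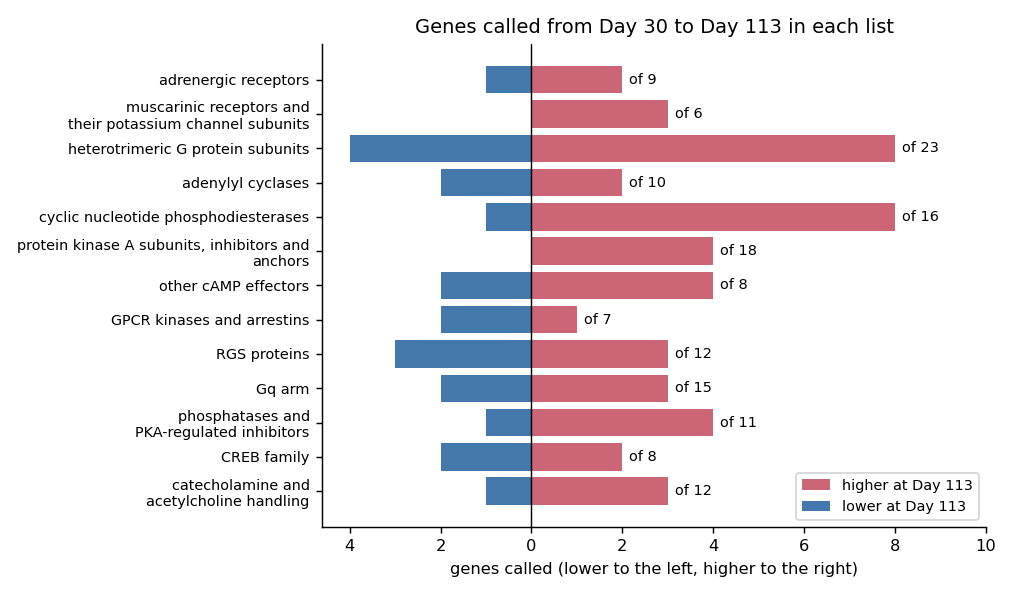
Number of genes called in each of 13 lists between Day 30 and Day 113, higher to the right and lower to the left, with the number of list genes in the table. The phosphodiesterase and G protein lists have the most higher genes, 8 each of 16 and of 23.

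For the 6 genes called in the joint test, the 2 genes of most similar course were sought among genes with a mean of at least 5 CPM, by the root mean square difference of log2 CPM centred over the 11 libraries. For ADCY5 these were PIGB (0.0737) and EZH2 (0.110), where the median over all genes compared was 0.427. For ADCY6 they were AGAP1 (0.0870) and CNKSR2 (0.0906, median 0.400), and for GRK5 CLIP4 (0.136) and SLC29A1 (0.145, median 0.512). For PDE4D they were ACADSB (0.151) and TMEM267 (0.156, median 0.454), for PDE3A MYLK (0.241) and FAT4 (0.334, median 0.870), and for ADRA1A the nearest was LOC107986558 (0.551, median 1.67). This nearest course is less close in these units than those given for the other 5 genes. These likenesses describe the 11 libraries only.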

How the data were processed

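Poly(A) RNA of 11 wells was sequenced as paired-end 150-bp reads, per the labels' protocols. The authors deposited whole-number read counts for 19990 genes, with no normalization, and a second table of TPM values. Per the submitters' processing notes, STAR 2.5.3a, featureCounts 2.0.3 and hg38 were used. The annotation and strand setting are not given in the sources used here. The gene length implied by count over TPM had a median Spearman rho of 0.00048 between 55 library pairs, so the deposited TPM values were not used further and every result rests on counts.

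Genes were tested with edgeR 4.0.16 (quasi-likelihood, TMM factors 0.966 to 1.04, R 4.3.3), with day as the only factor over all 11 libraries. No gene fell to filterByExpr (minimum count 10). Benjamini-Hochberg adjustment ran over 19990 genes, with a threshold of 0.05. The SE is the absolute log2 change over the root of the F statistic. Intervals and the floor of 3 counts cover counting error only. The nearest courses used log2 CPM with a prior count of 2, and the cyclase ratio a pseudocount of 0.5. Exon lengths, positions and overlaps came from GENCODE (GRCh38) and promoters from RefSeq (GRCh38.p14). Overlaps with other genes were examined for the 9 genes only.

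Every one of the 9 genes is named, with their close relatives, up to 3 genes of each further list (the largest changes to Day 113 among called genes with a mean of at least 1 CPM) and the 2 nearest courses. HCN4 is named outside this rule, after its values were seen. Values of some genes that the rule or the lists hold are not reported here. The 9 genes and the lists were chosen with earlier results of these data known. Wells of 1 day differed by 11.4 to 84.0 in chi-square per degree of freedom over 15 pairs, so none was taken as deposited 2 times. The alternatives were RLE, upper-quartile and unscaled library sizes, no filter, a mean of at least 1 CPM, DESeq2 1.42.0, limma-voom (limma 3.58.1), robust dispersions, only the days compared, the replicate number as a block, an adjusted p under 0.01, and each well left out. The script was tested on simulated data.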

Additional observations from a re-analysis of the deposited data

Results flagged for a closer look

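In the 18 groups of 4 wells (9 genes at Day 30 and Day 113), 4 held a well far from the other 3. Chance gives about 1 in 20 groups only when values are normal and groups independent. These groups reuse the same wells across genes, so an excess over that share cannot be judged. The share also does not hold for ADRA1A, whose other 3 wells of the day are tied at 0. Day 30 replicate 2 had the only ADRA1A reads of that day, at 0.1 CPM (3 counts). ADRA1B in Day 113 replicate 4 stood at 8.91 CPM, below the 15.9 to 17.2 CPM of the other wells of that day. Day 30 replicate 4 held the highest ADCY5, at 296 CPM, and the highest PDE4D, at 100 CPM, of its day.

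The genes ADCY6 and ADRA1A changed differently before and after Day 60 in the test of that difference. It was -0.933 on the log2 scale for ADCY6 (adjusted p 0.024), which ended lower than it stood at Day 60. For ADRA1A it was -5.21 as fitted (adjusted p 0.046), a size that rests on 3 counts at Day 30 and is no bound. The ADRA1A call was lost in 11 of 19 alternatives (adjusted p 0.011 to 0.16), among them those without Day 30 replicate 1, 3 or 4 or without any single Day 60 well. In all, 9.34% of 19990 genes passed this test. It compares intervals that differ in length and share the Day 60 wells, so it is not a test of rates.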

How the results depend on the processing

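Each pairwise call of the 9 genes at Day 30, 60 and 113 was kept in the alternatives run, except that ADRA1A was not tested at a mean of at least 1 CPM. The 2 genes called from Day 30 to Day 60 became 4 with upper-quartile scaling, 1 at a mean of at least 1 CPM, 5 with only the 2 days fitted, and 2 to 4 without 1 well. The 1 gene called from Day 60 to Day 113 became 1 to 3 without 1 well, and the 5 called over the whole course 5 to 6. The replicate numbers were not taken to pair the wells, since no label ties them across days. Residuals of same-numbered wells correlated positively in all 10 pairs (0.0224 to 0.157) and over 0.1 in 4, against -0.139 to 0.147 for other numbers. Of 11 libraries, 4 correlated best with their own number on both other days. These values do not exclude a pairing, so calls with the replicate block are given beside the main ones. With the replicate block, 6 genes were called from Day 30 to Day 60, 5 higher and 1 lower, adding ADRA1B (-0.79, adjusted p 0.045), ADCY5 (0.47, 0.017), ADCY6 (0.33, 0.043) and PDE4D (0.42, 0.040). It also called 6 over the whole course, adding a lower ADCY6 (-0.29, adjusted p 0.021), and lost the difference between intervals for ADRA1A (adjusted p 0.12). Over all genes the block moved the calls from 2060 to 2474, from 4790 to 4954 and from 6889 to 7143. At an adjusted p under 0.01, all-gene calls were 937, 2545 and 4552 for Day 60 against Day 30, Day 113 against Day 60 and Day 113 against Day 30, 4800 for any change and 618 for the difference between intervals. Without 1 well they ran from 1220 (without Day 60 replicate 3) to 2618, 3317 to 4735, 5657 to 6977, 6360 to 7427 and 643 (without Day 60 replicate 1) to 2221. Changes of small size reversed between Day 60 and Day 113: CHRM2 to -0.0025 with the replicate block, -0.050 without Day 60 replicate 2 and -0.042 without Day 113 replicate 4, ADRB1 to -0.11 and -0.048 without the same wells, and ADRA1B to -0.016 without Day 60 replicate 2. Without 1 well, the highest values of that comparison were 0.20 for CHRM2, 0.39 for ADRB1 and 0.49 for ADRA1B. The log2 ratio of ADCY5 to ADCY6 between Day 30 and Day 60 became -0.014 without that well, from 0.11, and was at most 0.24 without another. The cause was not tested. Of all calls, the share higher was 42.6% from Day 30 to Day 60 and 53.6% from Day 60 to Day 113, and 49.4% and 44.0% with upper-quartile scaling. The alternatives for relatives, for the difference between intervals and for the ratio were added after seeing the data. Depth limits ADRB1, ADRA1A and CHRM1, with at most 196 counts in a well.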
